A study of Mus musculus with 26 samples.

Results

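The mRNAs described here encode the proteins that bring glucose into brown fat and break it down, store it as glycogen or pass it through the pentose phosphate pathway. They were chosen by symbol from a list of 32 names, and where a name had several transcripts the most counted one stands for it. Of these names, 27 are listed in the larger of a pair of deposited count tables and 13 in the smaller one, out of 9378 and 1189 genes. Aldoc, Gapdh, Pgam1, Pkm and Pgm1 stand in neither table under those names. The row named Pkm2 belongs to the gene that RefSeq calls Pkm, and the row named Pgm2 carries a transcript that RefSeq assigns to Pgm1. The smaller table holds 6 mRNAs of glycolysis (Gpi1, Pfkl, Pfkp, Aldoa, Tpi1 and Pkm2), 4 of glycogen metabolism (Gys1, Gyg, Pygl and Pgm2) and 3 of the pentose pathway (Pgd, Tkt and Taldo1).

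The study recovered RNA with an antibody to IMP2, an mRNA-binding protein encoded by Igf2bp2, from brown fat, the tissue that burns fuel for heat. Imp2-/- mice and wild-type littermates on a C57Bl/6J background came from matings of heterozygotes. The 12 brown fat libraries came from males aged 10 weeks on normal chow that were kept overnight at 4 °C, so all groups share the cold exposure. The smaller table, called the knockout table here, holds wild-type total RNA (libraries 16 and 17), knockout total RNA (18 and 19), immunoprecipitates made with the IMP2 antibody from wild-type tissue (21 and 22) and the same from knockout tissue (23 and 24). The larger table, called the IgG table, has 2 libraries of wild-type total RNA (15 and 20), 1 IMP2 immunoprecipitate (25) and 1 control made with IgG (26), both from wild-type tissue. The 14 liver samples of the series were not analysed here. Whether a group's libraries are separate animals or pools is not in the labels, so p-values measure only the spread between these libraries, which may be technical.

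Glucose enters fat cells mainly through the insulin-responsive carrier Slc2a4 (GLUT4) and is trapped inside by hexokinase. Glycolysis then turns it into pyruvate, with phosphofructokinase as a main control point, while the pentose pathway draws on it to make NADPH, which lipid synthesis uses. Cold exposure raises glucose uptake by brown fat, and part of that glucose can be held as glycogen.

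Libraries of the knockout table summed to between 780333 and 4916160 counts over named genes, and those of the IgG table to between 1321756 and 3750103. Values are given in CPM, the counts scaled to a fixed total of the named genes in the same table, after scaling by the trimmed mean of M-values, so levels are compared between libraries of a table and not between tables. Transcript lengths were not used here, so levels are not compared between genes. Igf2bp2 has no row in the knockout table, so its mRNA gives no check of the genotype labels, and libraries 15, 20, 25 and 26 of the IgG table held 20, 16, 8 and 16 of its counts. Of 12 brown adipocyte markers, 8 are listed in the knockout table, at a summed 38787 to 49673 CPM, and Ucp1 stood at 5194 to 10860 CPM. Of 22 skeletal muscle markers 8 are listed there, and they summed to 2701 and 10515 CPM in wild-type total RNA, 1540 and 7248 in the wild-type immunoprecipitates, 596 and 2470 in knockout total RNA and 363 and 1384 in the knockout immunoprecipitates. In the IgG table all 22 are listed and summed to 20275 and 10838 CPM in total RNA, 10567 in the IMP2 and 7560 in the IgG immunoprecipitate. Red blood cell markers, 3 of 7 listed in the knockout table, summed to 3625 to 5038 CPM in total RNA and 1618 to 2734 in the immunoprecipitates. Macrophage and fibroblast markers have no row in the knockout table. In bulk tissue, fewer cells of a type and less RNA per cell cannot be told apart.

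The first comparison asks which of these mRNAs the IMP2 antibody recovered above or below their share of total RNA. In wild-type brown fat Tpi1, Aldoa and Gpi1 were lower and Pfkl and Taldo1 higher in the immunoprecipitate, which is 5 of the 13 members. Of all 1189 genes of that table, 9.92% were called higher and 12.4% lower, 22.4% in all, by edgeR's quasi-likelihood test at a Benjamini-Hochberg adjusted p under 0.05. The median log2 ratio was -0.10 for the members and 0.01 for all genes. The split over all genes, 118 higher and 148 lower, became 214 and 94 with upper-quartile scaling and 157 and 119 with library size alone. In the knockout, 2 members were higher and 3 lower, against 10.6% and 15.7% of all genes (26.3% in all), with 126 genes higher and 187 lower that became 273 and 130 with upper-quartile scaling and 246 and 145 with library size alone.

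Tpi1, triosephosphate isomerase, which interconverts the pair of sugars that aldolase makes, had the lowest ratio of the members in both genotypes. Its level was 3442 and 4265 CPM in wild-type total RNA and 1467 and 2022 CPM in the wild-type immunoprecipitates. It was 3179 and 2746 CPM in knockout total RNA and 1497 and 1377 CPM in the knockout immunoprecipitates. All 4 immunoprecipitates lay below all 4 total RNA libraries. The log2 ratio of immunoprecipitate to total RNA was -1.14 ± 0.18 in the wild type (SE, n = 2 per group, edgeR adjusted p = 0.00428), which is 2.21-fold lower, and -1.04 ± 0.18 in the knockout (edgeR adjusted p = 0.00429).

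Aldoa, the aldolase that splits fructose bisphosphate and is also the form of skeletal muscle, stood at 7311 and 8332 CPM in wild-type total RNA and at 4236 and 4029 CPM after immunoprecipitation. In the knockout it stood at 6659 and 8942 CPM in total RNA and at 3773 and 5216 CPM in the immunoprecipitates. The immunoprecipitates lay below total RNA without overlap. The log2 ratio was -0.92 ± 0.21 in the wild type (SE, n = 2 per group, edgeR adjusted p = 0.0163) and -0.80 ± 0.21 in the knockout (edgeR adjusted p = 0.024). The lowest and the highest muscle marker sums were also lower in the immunoprecipitates than in total RNA of each genotype, but with overlap. Library 22 had 7248 CPM of muscle markers against 2701 in total RNA library 16, and library 24 had 1384 against 596 in library 18. The part of the muscle markers in the Aldoa ratio was not tested. Leaving out library 16, 17, 21 or 22 ended the wild-type call, with log2 ratios of -1.01, -0.82, -0.96 and -0.88, and leaving out library 19 (log2 -0.57) or 23 (log2 -0.54) ended the knockout call.

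Gpi1, the isomerase that passes glucose 6-phosphate on to phosphofructokinase, had the smallest of the called falls. It stood at 2694 and 2676 CPM in wild-type total RNA and at 1923 and 2022 CPM after immunoprecipitation. In the knockout the values were 2814 and 2980 CPM in total RNA and 1816 and 2096 CPM in the immunoprecipitates, again with no overlap. The log2 ratio was -0.44 ± 0.11 in the wild type (SE, n = 2 per group, edgeR adjusted p = 0.027) and -0.57 ± 0.11 in the knockout (edgeR adjusted p = 0.0082). The wild-type call ended with upper-quartile scaling (log2 -0.30), which raised the median of all genes by 0.14, and without library 16, 17, 21 or 22 (log2 -0.44, -0.45, -0.41 and -0.48). The knockout call ended without library 23 (log2 -0.42).

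Pfkl, the liver-type subunit of phosphofructokinase, had the highest ratio of the members in both genotypes. It stood at 904 and 905 CPM in wild-type total RNA and at 1548 and 1567 CPM after immunoprecipitation. In the knockout it stood at 903 and 1000.2 CPM in total RNA and at 1655 and 1855 CPM in the immunoprecipitates. All 4 immunoprecipitates lay above all 4 total RNA libraries. The log2 ratio was 0.78 ± 0.11 in the wild type (SE, n = 2 per group, edgeR adjusted p = 0.00202) and 0.88 ± 0.10 in the knockout (edgeR adjusted p = 0.000875).

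The other glycolytic mRNAs of the table passed the test in neither genotype. Pfkp, the platelet-type subunit of phosphofructokinase, had 201 and 207 CPM in wild-type total RNA and 209 and 171 CPM in the immunoprecipitates, with overlapping groups and a log2 ratio of -0.10 ± 0.20 (edgeR adjusted p = 0.752). Pkm2, pyruvate kinase, which makes pyruvate at the end of glycolysis, had 4897 and 4823 CPM in wild-type total RNA and 5554 and 5578 CPM in the immunoprecipitates. Its log2 ratio was 0.20 ± 0.16 there (edgeR adjusted p = 0.402) and 0.32 ± 0.16 in the knockout (edgeR adjusted p = 0.176). Another transcript row of the same gene has nearly the same counts, 90442 against 90410 over the knockout table, and how many reads the rows share was not tested.

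Among the pentose pathway mRNAs Taldo1, transaldolase, stood at 2460 and 2341 CPM in wild-type total RNA and at 3596 and 3443 CPM after immunoprecipitation. In the knockout it stood at 2745 and 2967 CPM in total RNA and at 3243 and 4284 CPM in the immunoprecipitates. The immunoprecipitates lay above total RNA in each genotype. The log2 ratio was 0.55 ± 0.15 in the wild type (SE, n = 2 per group, edgeR adjusted p = 0.0318) and 0.40 ± 0.15 in the knockout (edgeR adjusted p = 0.0771). The wild-type call ended without library 16, 17, 21 or 22 (log2 0.59, 0.52, 0.52 and 0.58), and the knockout value passed with upper-quartile scaling (log2 0.56), library size alone (0.53), DESeq2 (0.41) and without library 23 (0.63), while without library 24 it was 0.20 (edgeR adjusted p = 0.398).

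Tkt, transketolase, the other enzyme that reshuffles carbons in this pathway, had 8375 and 7105 CPM in wild-type total RNA and 6776 and 6823 CPM after immunoprecipitation. In the knockout it had 9357 and 9982 CPM in total RNA and 6648 and 8382 CPM in the immunoprecipitates. The immunoprecipitates were the lower ones in both genotypes, with log2 ratios of -0.19 ± 0.18 (edgeR adjusted p = 0.464) and -0.36 ± 0.18 (edgeR adjusted p = 0.157). Pgd, which makes NADPH from 6-phosphogluconate, had a knockout log2 ratio of 0.08 ± 0.34 and a wild-type ratio within 0.01 of 0.

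Of the glycogen mRNAs Gys1, the glycogen synthase of muscle and fat, stood at 580 and 611 CPM in knockout total RNA and at 837 and 851 CPM in the knockout immunoprecipitates, which do not overlap. Its log2 ratio was 0.50 ± 0.14 (SE, n = 2 per group, edgeR adjusted p = 0.0311), and the call ended without library 18, 19, 23 or 24 (log2 0.50, 0.54, 0.56 and 0.51). In the wild type Gys1 stood at 521 and 671 CPM in total RNA and at 676 and 746 CPM in the immunoprecipitates, with a log2 ratio of 0.25 ± 0.14 (edgeR adjusted p = 0.219). Pgm2, the phosphoglucomutase row, had 796 and 715 CPM in wild-type total RNA and 685 and 532 CPM in the immunoprecipitates (log2 -0.31 ± 0.15, edgeR adjusted p = 0.168), and a log2 ratio of -0.07 in the knockout. Pygl, the liver-type glycogen phosphorylase, had log2 ratios of 0.05 and 0.03. Gyg, the glycogenin that primes new glycogen, had -0.24 ± 0.16 in the wild type and 0.00 ± 0.15 in the knockout.

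**Figure D1:**
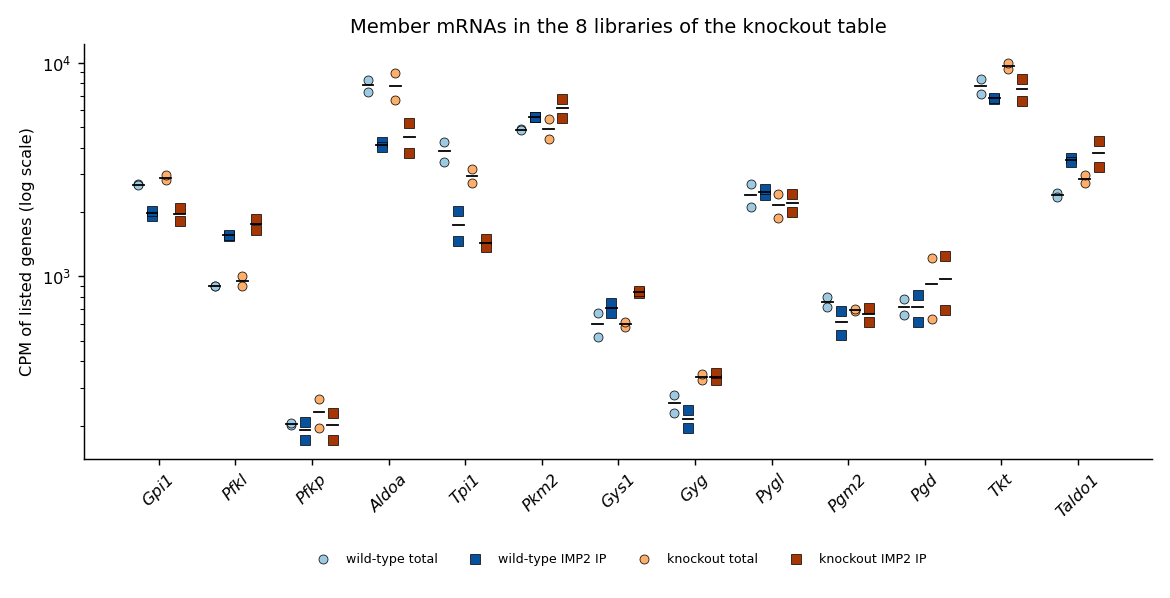
CPM of listed genes (log axis) of the 13 members in the 8 libraries of the knockout table, with 2 points per group and their mean as a line. Tpi1, Aldoa, Gpi1 and Tkt are lower, and Pfkl, Taldo1, Pkm2 and Gys1 higher, in the immunoprecipitates (squares) than in total RNA (circles) of the same genotype. Not all of these differences were called, and how many of all listed genes lie apart in this way was not counted.

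The promoters of the 3 glycolytic members with the lowest and highest ratios are shown for the letters at their start sites, although no value in these tables measures promoters. Each window is the 250 bases before the start, from RefSeq on GRCm38.p6. Capitals mark ACGTG on either strand (CACGT on the strand shown), a form of the core of the element that hypoxia-inducible factors bind. The form GCGTG, which the Pfkl window holds, was neither marked nor counted. The window of Tpi1 is chr6:124814159-124814408, that of Aldoa, 1 of its 3 windows, is chr7:126799179-126799428, and that of Pfkl is chr10:78009808-78010057, all on the minus strand.
Tpi1: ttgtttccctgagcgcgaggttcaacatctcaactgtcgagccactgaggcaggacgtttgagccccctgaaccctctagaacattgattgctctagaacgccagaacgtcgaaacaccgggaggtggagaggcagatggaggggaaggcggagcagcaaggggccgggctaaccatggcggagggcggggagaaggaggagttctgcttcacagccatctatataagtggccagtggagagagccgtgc
Aldoa: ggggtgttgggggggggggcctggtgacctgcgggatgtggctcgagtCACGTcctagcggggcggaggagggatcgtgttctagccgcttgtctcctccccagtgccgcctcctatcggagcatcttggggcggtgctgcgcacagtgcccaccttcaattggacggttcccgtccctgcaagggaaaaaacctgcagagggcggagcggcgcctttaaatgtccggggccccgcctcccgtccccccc
Pfkl: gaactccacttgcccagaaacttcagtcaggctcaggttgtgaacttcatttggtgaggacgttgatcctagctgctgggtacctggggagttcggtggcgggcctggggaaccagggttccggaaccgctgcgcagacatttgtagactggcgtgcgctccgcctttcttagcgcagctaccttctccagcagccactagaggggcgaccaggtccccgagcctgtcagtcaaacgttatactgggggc
The Aldoa window holds the motif once, and these letters are not in the windows of Tpi1 and Pfkl. Of the 26 listed members with a window 13 (50%) had the motif in at least 1 window, against 18.5% of 27025 genes. These 27025 genes take in genes that neither count table lists, whereas the members are all listed. Genes with several windows have more chances of a match, and over single windows the counts were 17 of 43 for the members (39.5%), against 16.6% of 32851 windows. A match is a description of the letters and not a bound site.

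The next comparison is IMP2-dependent recovery, the wild-type log2 ratio of immunoprecipitate to total RNA minus the knockout ratio. No member was called in this measure by edgeR or DESeq2, and none had an unadjusted p under 0.05. No gene of the table was called by either tool, which is 0%. With edgeR 29 of 1189 had an unadjusted p under 0.05, all of them with a value above 0. The 13 values ran from log2 -0.25 to 0.18 with a median of -0.10, against a median of -0.002 for all genes of that table. No listed gene lies below log2 -0.30 in this measure, and no source used here states how genes were listed. The table therefore holds no gene with a lower value, and its members do not stand for the 14 found only in the IgG table. Of those, Slc2a4, Hk2, Pfkfb3, Eno1 and Slc16a1, 5 in all, had over 100 counts in all 4 libraries there.

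The lowest IMP2-dependent values belonged to Gys1 at log2 -0.25 (95% interval -0.71 to 0.21), Pgm2 at -0.24 (-0.73 to 0.25) and Gyg at -0.24 (-0.74 to 0.26). Over the 16 settings tried, left-out libraries included, these values ran from -0.42 to -0.05 for Gys1, from -0.46 to -0.07 for Pgm2 and from -0.42 to -0.09 for Gyg, while Pgd reached -0.63 and Aldoa -0.38, so the order of the members is not firm. Pygl stood at 0.01 (-0.55 to 0.57). The highest were Tkt at 0.18 (-0.40 to 0.75), Taldo1 at 0.15 (-0.32 to 0.63) and Gpi1 at 0.12 (-0.24 to 0.49). Tpi1 stood at -0.10 (-0.67 to 0.47), Aldoa at -0.12 (-0.79 to 0.54) and Pfkl, with the smallest SE of the members, at -0.10 (-0.44 to 0.24). For 12 of the 13 members the interval lay within log2 1 on both sides of 0. The exception was Pgd at -0.08 (-1.18 to 1.02).

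**Figure D2:**
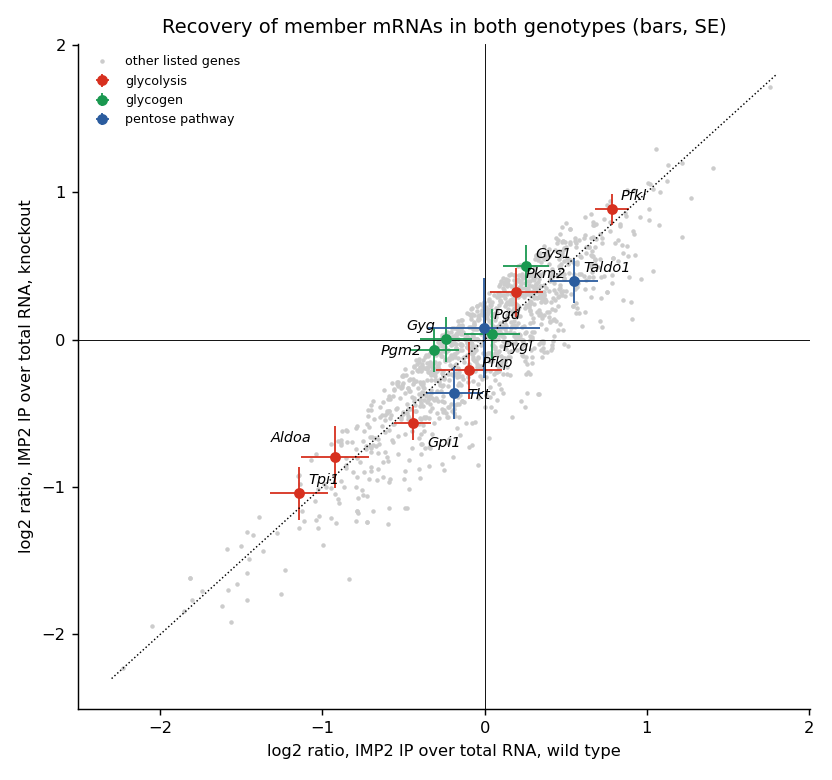
Log2 ratio of IMP2 immunoprecipitate to total RNA in the wild type (x axis) and in the knockout (y axis), with the 13 members coloured by role (bars, SE) and the other listed genes in grey. Members run along the line of equal ratios from Tpi1 (-1.14 and -1.04) to Pfkl (0.78 and 0.88), and the listing of the table ends at a difference of -0.30 for all genes.

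**Figure D3:**
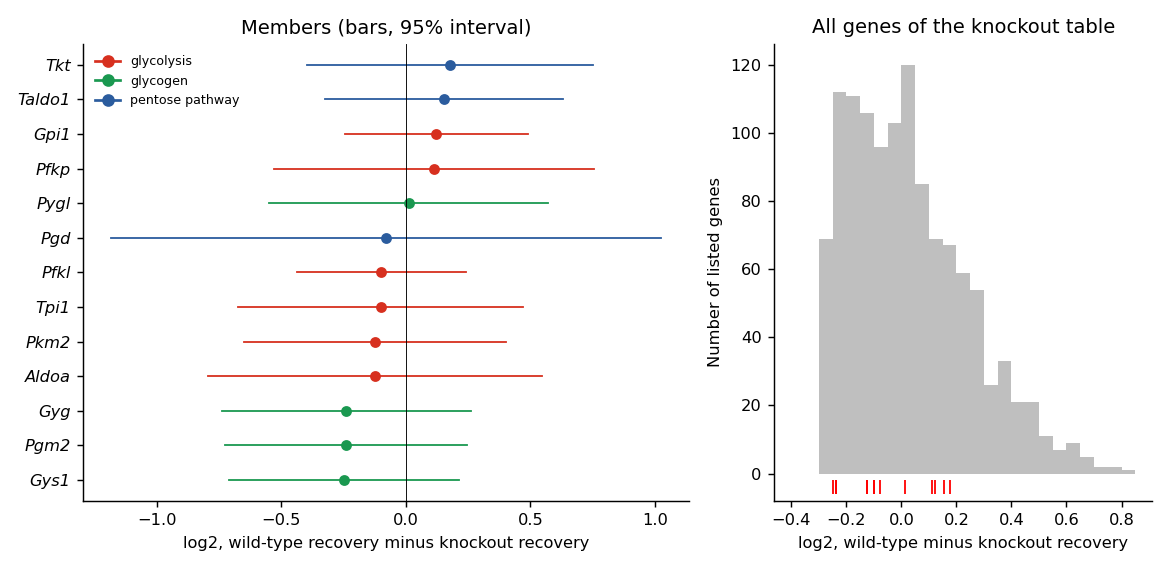
Left, wild-type minus knockout log2 recovery of the 13 members with 95% intervals, all of which include 0. Right, the number of listed genes by the same measure, with the members as red ticks below the bars and the lower end of the table at log2 -0.30.

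Between genotypes, Gyg, the glycogenin that primes glycogen, had the largest log2 difference of the members in total RNA and in the immunoprecipitates, but the count of members that it makes up was near the background. It had 279 and 230 CPM in wild-type total RNA and 237 and 194 CPM in the wild-type immunoprecipitates. In the knockout it had 325 and 350 CPM in total RNA and 325 and 351 CPM in the immunoprecipitates. All 4 knockout libraries lay above all 4 wild-type libraries. Gyg was the 1 member of 13 whose genotypes did not overlap in either direction, as was true of 3.53% of all 1189 genes with the knockout higher and 3.45% with it lower (6.98% in all), so 1 of 13 is close to the share over all genes. In total RNA its log2 ratio of knockout to wild type was 0.41 ± 0.15 (SE, n = 2 per group, edgeR adjusted p = 0.392), and 0.27 without library 17. Between the immunoprecipitates its log2 ratio of wild type to knockout was -0.65 ± 0.16 (SE, n = 2 per group, edgeR adjusted p = 0.129), a difference that DESeq2 called at an adjusted p of 0.00744. Summed muscle markers were 1540 to 10515 CPM in the 4 wild-type libraries and 363 to 2470 CPM in the 4 knockout libraries, and their part in the Gyg difference was not tested.

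In total RNA no member was called between knockout and wild type by edgeR or DESeq2, and 1, Gyg, had an unadjusted p under 0.05. With edgeR 0% of all genes were called and 132 had an unadjusted p under 0.05, while DESeq2 called 18 higher and 17 lower. Tpi1 had the lowest log2 ratio of knockout to wild type, -0.38 ± 0.18 (edgeR adjusted p = 0.461), with both knockout libraries below both wild-type ones. Pygl followed at -0.16 ± 0.17, with 2121 and 2705 CPM in the wild type and 1881 and 2434 CPM in the knockout, and then Pgm2 at -0.12 ± 0.15, with 688 and 702 CPM in the knockout. After Gyg the highest were the 3 pentose pathway mRNAs, Pgd at 0.36 ± 0.34, Tkt at 0.32 ± 0.18 and Taldo1 at 0.25 ± 0.15, with edgeR adjusted p of 0.728, 0.556 and 0.565. For Tkt and Taldo1 both knockout libraries lay above both wild-type ones, as they did for Gyg and Gpi1, and for Pgm2 both lay below, as for Tpi1. The share of all genes with such a split of 2 against 2 libraries was not counted.

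Between the immunoprecipitates of the genotypes, wild type over knockout, edgeR called no member and 0% of all genes, 211 genes and 1 member, Gyg, had an unadjusted p under 0.05, and DESeq2 called 60 genes higher and 33 lower. Gyg was the 1 member among those. After it the lowest log2 ratios were those of Pgd at -0.44 ± 0.34 and Gys1 at -0.25 ± 0.14, and the highest were Tpi1 at 0.28 ± 0.18, Pygl at 0.17 ± 0.17 and Gpi1 at 0.01 ± 0.11.

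Pgd differed between libraries of a group. It had 629 and 1212 CPM in knockout total RNA and 697 and 1250 CPM in the knockout immunoprecipitates, so library 19 was above 18 and library 24 above 23. In the wild type it had 781 and 656 CPM in total RNA and 820 and 613 CPM in the immunoprecipitates. Its IMP2-dependent value had an SE of 0.48, the largest of the members, in a fit that treats the libraries as unpaired. Summed muscle markers were also higher in library 19 than in 18 and in 24 than in 23. In the wild type they ran opposite to Pgd, higher in library 17 than in 16 and in 22 than in 21. The part of the muscle markers in this spread was not tested.

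**Figure D4:**
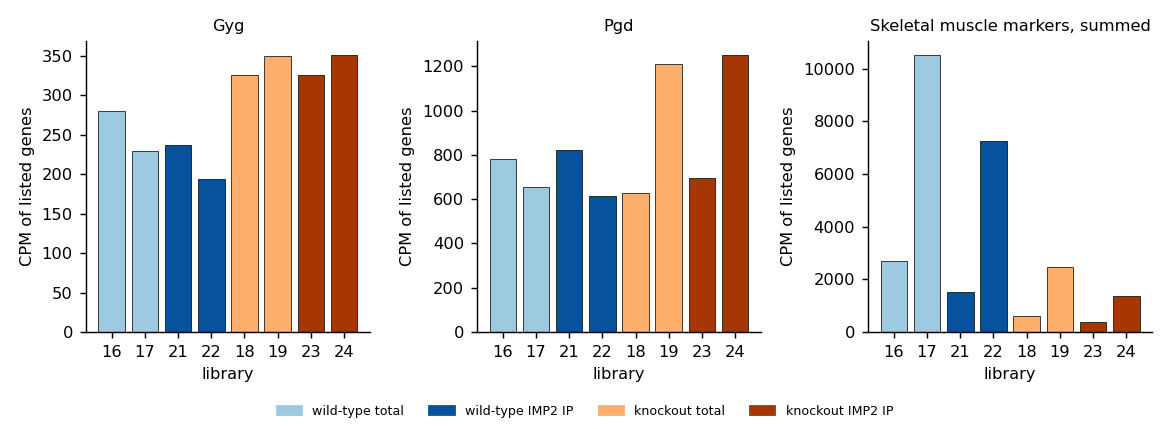
CPM in each library of the knockout table for Gyg, for Pgd and for the 8 listed skeletal muscle markers summed (linear axes from 0, numbers are libraries). Gyg is 325 to 351 CPM in the knockout and 194 to 279 in the wild type, Pgd is highest in libraries 19 and 24, and the muscle markers are highest in libraries 17 and 22.

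The IgG table extends the account to 27 members in wild-type brown fat, of which 26 passed the filter on low counts. The IMP2 and IgG immunoprecipitates are 1 library each, so their spread is assumed to be that of the 2 total RNA libraries. Against total RNA 1 of 26 members was lower in the IMP2 immunoprecipitate and none higher, where 0.859% and 0.0446% of 8966 genes were called (0.903% in all). In the IgG immunoprecipitate 2 members were lower and none higher, where 1.52% and 0.48% of genes were called (2% in all). Of the genes called in the IgG comparison 24.0% were higher, a share that became 51.8% with library size alone and 34.7% with upper-quartile scaling. Both comparisons share the same total RNA libraries.

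Gbe1, the branching enzyme that gives glycogen its tree-like form, was lower in both. It had 261 and 475 counts in total RNA, or 184 and 180.0 CPM. The IMP2 immunoprecipitate had 53 counts, or 41.6 CPM (exact Poisson 95% interval 31.2 to 54.5), and the IgG immunoprecipitate 275 counts, or 67.2 CPM (59.5 to 75.6). Both lay below both total RNA libraries. Such intervals cover counting error only. The log2 ratio to total RNA was -2.12 ± 0.47 with the IMP2 antibody (SE, edgeR adjusted p = 0.00256), which is 4.36-fold lower, and -1.44 ± 0.43 with IgG (edgeR adjusted p = 0.0455). The IgG call ended with upper-quartile scaling (log2 -1.37), library size alone (-1.27) and DESeq2 (-1.45).

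Tpi1 had 3498 and 2320 CPM in total RNA, 1571 CPM in the IMP2 and 906 CPM in the IgG immunoprecipitate. Its log2 ratio to total RNA was -1.68 ± 0.45 with IgG (SE, edgeR adjusted p = 0.0156) and -0.89 ± 0.43 with the IMP2 antibody (edgeR adjusted p = 0.57). Slc16a1, the lactate and pyruvate carrier MCT1, had 279 and 208 CPM in total RNA, 150 CPM in the IMP2 and 113 CPM in the IgG immunoprecipitate. Its log2 ratios were -0.70 ± 0.41 with the IMP2 antibody and -1.10 ± 0.42 with IgG (edgeR adjusted p = 0.714 and 0.153). Aldoa had 5286 and 6939 CPM in total RNA, 3535 CPM in the IMP2 and 4186 CPM in the IgG immunoprecipitate. For all 3 of these mRNAs both immunoprecipitates lay below both total RNA libraries, as was true of Gbe1 and Pfkm among the other tested members. How many of all genes did so was not counted.

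On the other side Pfkl had 647 and 551 CPM in total RNA, 1123 CPM in the IMP2 and 899 CPM in the IgG immunoprecipitate. Its log2 ratios were 0.91 ± 0.39 and 0.59 ± 0.39 (edgeR adjusted p = 0.455 and 0.516). Gys1 had 356 and 238 CPM in total RNA, 485 CPM with the IMP2 antibody and 354 CPM with IgG, and a log2 ratio of 0.71 ± 0.39 with the former. Pkm2 had 2302 and 2707 CPM in total RNA, 3572 CPM with the IMP2 antibody and 2969 CPM with IgG. Pfkl and Pkm2 were above both total RNA libraries in both immunoprecipitates, and so were Pfkp, Hk2, Pygl, Pygb and Ugp2 among the other tested members. The share of all genes that lay apart in this way was not counted.

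The highest ratios with IgG belonged to members that the knockout table lacks. Hk2, the hexokinase of insulin-sensitive tissues, had 178 and 160 CPM in total RNA, 206 CPM with the IMP2 antibody and 286 CPM with IgG, and an IgG log2 ratio of 0.76 ± 0.39 (edgeR adjusted p = 0.342). Pfkfb3, which makes the activator of phosphofructokinase, had 255 and 228 CPM in total RNA, 255 CPM with the IMP2 antibody and 373 CPM with IgG, and an IgG log2 ratio of 0.63 ± 0.39 (edgeR adjusted p = 0.469). In both the IgG library was the highest of the 4.

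The carrier Slc2a4 had 604 and 474 CPM in total RNA, 547 CPM with the IMP2 antibody and 454 CPM with IgG, and log2 ratios of 0.02 ± 0.40 and -0.25 ± 0.40. Slc2a1, the carrier that works without insulin, had 4, 6, 2 and 6 counts in libraries 15, 20, 25 and 26 and was not tested. Several other members had few counts, with 24 to 68 for Hk1, a widely expressed hexokinase, 16 to 96 for Pfkfb1, 7 to 24 for Pfkfb2, 15 to 57 for Pgk1, phosphoglycerate kinase, and 37 to 161 for Pygb, the brain-type phosphorylase. Eno1, enolase, had 120 to 744 counts that are identical to those of the copy Gm5506, so its reads cannot be assigned to either. Pfkm, the muscle subunit of phosphofructokinase, had 110 and 72.0 CPM in total RNA, 67.6 CPM with the IMP2 antibody and 64.5 CPM with IgG. Ugp2, which makes the UDP-glucose for glycogen, ranged from 69.6 to 82.5 CPM over the 4 libraries.

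Between the IMP2 and the IgG immunoprecipitate no member was called by edgeR or DESeq2 and none had an unadjusted p under 0.05. With edgeR 0.0558% of genes were called higher and 0.178% lower (0.234% in all), and 565 genes had an unadjusted p under 0.05. The highest ratio of IMP2 to IgG was that of Tpi1 at 1.73-fold (exact 95% counting interval 1.64 to 1.83). Gyg followed at 1.38-fold (1.15 to 1.64), with 145 CPM against 104.8 CPM, and Gys1 at 1.37-fold, with 485 CPM against 354 CPM. The lowest were Pfkfb1 at 0.536-fold (0.295 to 0.916), with 12.6 CPM against 23.4 CPM, Gbe1 at 0.620-fold (0.453 to 0.834) and Pfkfb3 at 0.682-fold (0.604 to 0.770). These intervals leave out the spread between libraries, which the fit includes, as for Tpi1 at log2 0.79 ± 0.48 (edgeR adjusted p = 0.832). For Slc2a1 the ratio was 1.07-fold (0.106 to 6.00), which is too wide for a difference to be detectable from so few counts.

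**Figure D5:**
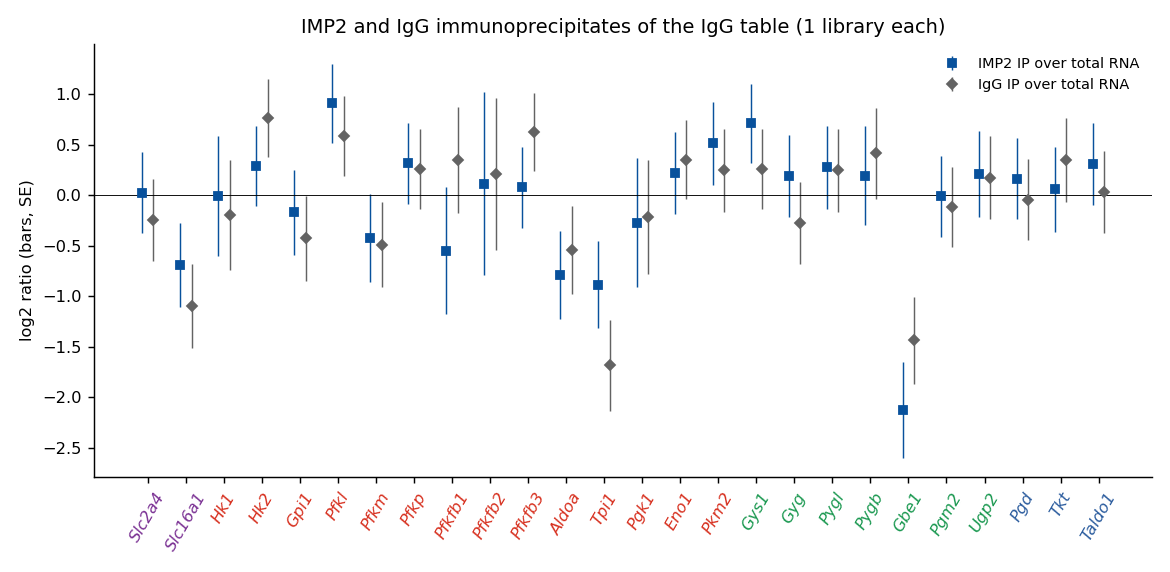
Log2 ratios to total RNA of the 26 tested members in the IMP2 (squares) and the IgG immunoprecipitate (diamonds) of the IgG table, with SE bars and gene names coloured by role (purple uptake and lactate export, red glycolysis, green glycogen, blue pentose pathway). Gbe1 is lowest with the IMP2 antibody (-2.12) and Tpi1 with IgG (-1.68), and both ratios share their total RNA libraries.

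With all 12 libraries in 1 fit, a term for the table and the 1189 genes of both tables, 3 wild-type IMP2 immunoprecipitates were set against 4 wild-type total RNA libraries. Here 2 of the 13 members were higher and 2 lower, where 14% and 14.5% of genes were called (28.5% in all), and the 167 higher and 172 lower genes became 278 and 116 with upper-quartile scaling and 232 and 127 with library size alone. Pfkl was at log2 0.79 ± 0.11 (edgeR adjusted p = 0.000857), Tpi1 at -1.09 ± 0.17 (edgeR adjusted p = 0.00135) and Aldoa at -0.92 ± 0.17 (edgeR adjusted p = 0.00302). Taldo1 was at 0.41 ± 0.14 (edgeR adjusted p = 0.0483), a call that ended when all rows of a symbol were summed (log2 0.40) and without any 1 of the 8 libraries of the knockout table, 16 to 19 and 21 to 24 (log2 0.35 to 0.41). This fit reuses the libraries of the fits above.

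In the same fit the IgG immunoprecipitate against total RNA had Pfkl at log2 0.74 ± 0.17 (edgeR adjusted p = 0.014) and Tpi1 at -1.55 ± 0.28 (edgeR adjusted p = 0.00589), 1 member in each direction, where 11.7% and 11.9% of genes were called (23.6% in all). Of the called genes 49.5% were higher, a share that became 68.5% with upper-quartile scaling and 63.5% with library size alone. Without total RNA library 20 a second member, Tkt, passed, which makes 2. Between IMP2 and IgG immunoprecipitates no member was called by edgeR or DESeq2 and none had an unadjusted p under 0.05, against 0.336% of genes called higher and 1.26% lower (1.6% in all) and 228 at an unadjusted p under 0.05 with edgeR. Pfkl was at log2 0.04 (95% interval -0.37 to 0.45), Tpi1 at 0.46 (-0.15 to 1.08), Aldoa at -0.52 (-1.13 to 0.08) and Tkt, the lowest, at -0.61 (-1.26 to 0.04).

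Other genes of these pathways came from a list of 60 names, of which 5 (Pgls, Bsg, Mlxipl and Ppp1r3c among them) are in the knockout table and 40 in the IgG table, 38 of them tested. In each genotype 2 of the 5 were lower in the immunoprecipitate and none higher, where 12.4% of all genes were lower and 9.92% higher in the wild type and 15.7% and 10.6% in the knockout. Pgls, the lactonase of the pentose pathway, was at log2 -0.72 ± 0.18 in the wild type (edgeR adjusted p = 0.0256) and -1.06 ± 0.18 in the knockout (edgeR adjusted p = 0.00429). Bsg, the chaperone that carries lactate transporters to the cell surface, was at -0.64 ± 0.12 (edgeR adjusted p = 0.00883) and -0.52 ± 0.12 (edgeR adjusted p = 0.0158). The median of the 5 was log2 -0.54 and -0.31. None of the 5 was called by edgeR for IMP2-dependent recovery or between genotypes. With all 12 libraries in the fit the IgG immunoprecipitate had Bsg and Pgls lower than total RNA (log2 -1.01 and -0.96) and Mlxipl, a glucose-sensing transcription factor, higher (1.20), where 11.9% of genes were lower and 11.7% higher. Mlxipl was also lower with the IMP2 antibody than with IgG in that fit (log2 -1.19 ± 0.24, edgeR adjusted p = 0.0363), where 1.26% of genes were lower. In the IgG table alone edgeR called none of the 38 in any comparison.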

How the data were processed

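RNA from immunoprecipitates and total RNA was sequenced, and the authors deposited whole-number read counts per RefSeq transcript with no scaling, per the file headers and values. The submitters' processing notes name TopHat2 2.0.8, Cufflinks 2.1.1 and mm10; no source used here gives their roles, the counting tool or the rule for listing transcripts. The tables list 1579 and 12840 transcripts. RefSeq accessions (GRCm38.p6) named 114 of 117 and 813 of 835 transcripts without a symbol. The 3 and 22 left unnamed, with 8.65% to 29.2% and 7.39% to 15.8% of the counts, stayed out of library sizes and tests.

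Counts were fitted with edgeR 4.0.16 in R 4.3.3 (quasi-likelihood test, trimmed mean of M-values, low-count filter, Benjamini-Hochberg adjustment over all genes tested, threshold 0.05), after a check of the scripts on simulated data. Each table was fitted on its own, with 1189 and 8966 genes tested, 4 and 1 residual degrees of freedom and a biological coefficient of variation of 15.3% and 25.1%; a fit over all 12 libraries had 6 and 16.3%. DESeq2 1.42.0, other scalings, other filters, summed rows and left-out libraries were alternatives. Samples were grouped by the labels and treated as unpaired. Values per library are given for members past the threshold and for the 3 highest and 3 lowest in a comparison. The members and lists were chosen with earlier results of these data known. A result for 1 other gene of these pathways is not reported here.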

Additional observations from a re-analysis of the deposited data

How the results depend on the processing

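The 346 alternative values cover each member in the comparisons where the main fit called it. They also cover Gyg between genotypes and, against total RNA, Taldo1 in the knockout and Gys1 in the wild type. Of these values 309 kept their direction and side of the threshold, 32 kept the direction but lost the call, 5 gained one and 0 reversed. Outside this set some values changed sign between settings, such as Pfkp in the wild type (log2 -0.26 to 0.05) and Pgd in the knockout (-0.38 to 0.63). Of the 185 values with a library left out, 157 were unchanged in this sense, 27 lost the call and 1 gained it. Some of the 346 values could hardly differ from the main fit. The other filters kept the same 1189 genes in the knockout table and in the fit over all libraries, and some left-out libraries lay outside the comparison. With a library left out, the wild-type immunoprecipitate had 1 to 2 members higher and 1 to 3 lower than total RNA, the knockout immunoprecipitate 1 to 2 and 1 to 3, and the fit over all libraries 1 to 3 and 2 to 3, with 1 to 2 members higher for IgG. Upper-quartile scaling, library size alone and DESeq2 each left 1 member lower with IgG in the IgG table. In the fit over all libraries 4 members were higher with upper-quartile scaling (Pfkl, Taldo1, Gys1 and Pkm2), where 278 of 1189 genes were. When the rows of a symbol were summed 1 member was higher, where 151 of 1189 genes were. DESeq2 called 1 member, Gyg, lower in wild-type than in knockout immunoprecipitates, where it called 33 of 1189 genes lower and edgeR called 0. Upper-quartile scaling raised the median log2 ratio of all genes by 0.14 in the wild-type and 0.17 in the knockout immunoprecipitate, and by 0.11 with the IMP2 antibody and 0.15 with IgG in the fit over all libraries. Library size alone moved it by 0.13 in the knockout immunoprecipitate, by 0.17 for IgG against total RNA and -0.18 for IMP2 against IgG in the IgG table, and by 0.11 for IgG in the fit over all libraries. The cause was not tested, beyond the fewer samples of the fits without a library. No paired analysis was run because the labels give each library its own number and groups share none. By library number, Pgd and the muscle sums ran in the same order in total RNA and in the immunoprecipitates of each genotype. If the libraries are pairs, the unpaired fits count differences between pairs as spread. In the IgG table, leaving out a total RNA library leaves no residual degrees of freedom, and leaving out an immunoprecipitate removes the comparisons it is part of, so those values were not run; without the immunoprecipitate that a comparison does not use, its counts of members stayed at 0 higher and 1 lower (IMP2) and 0 higher and 2 lower (IgG). Depth limits Slc2a1, Pfkfb2, Pgk1, Pfkfb1 and Hk1 most.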
